A study of Saccharomyces cerevisiae with 8 samples.

Results

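Yeast of the strain CRN/PPN1, which overproduces the polyphosphatase Ppn1, were compared in medium with an excess of manganese and in control medium. The members were chosen by strain, as the 2 manganese and 2 control libraries of CRN/PPN1, 4 of the 8 libraries of the study. The rule did not use their values, although earlier results of these data were known. CRN/PPN1 is CRN (MATa ade2 his3 ura3 ppn1Δ::CgTRP1) transformed with the vector pMB1/PPN1 Sc, so that the chromosomal PPN1 gene is deleted in all libraries and the transcript comes from the vector, whose promoter is not given in the sources used here. The strain was kept on selective medium, while the cultures for RNA were not under selection for the vector. All cultures grew in YPD with 2% glucose and 14 mM KH2PO4 at 29 °C. The control cultures were harvested after 12 h and the cultures with 5 mM MnSO4 after 16 h, and each medium had 2 simultaneous cultivations, so that growth time and manganese cannot be told apart. The other 4 libraries are of CRN in the same media, harvested after 12 h in control medium and 40 h in manganese, and entered the filter on low counts, the shared estimate of the spread and a test of whether the response differed between the strains.

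Polyphosphate is a chain of phosphate residues that yeast store mainly in the vacuole, where it also binds metal ions. The VTC complex of the vacuolar membrane makes the chain and moves it into the lumen, and the polyphosphatases Ppn1, Ppn2 and Ppx1 and the phosphohydrolase Ddp1 shorten it. When phosphate runs short, the transcription factor Pho4 enters the nucleus and, with Pho2, binds the motif CACGTG upstream of phosphate transporters, phosphatases and VTC genes. Manganese is needed in traces by enzymes of the mitochondria and the Golgi and is toxic in excess. Pmr1 pumps it into the Golgi and Smf1 brings it in at the cell surface, while the study lists Smf2 as a manganese transporter of the ER membrane.

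The 4 libraries held between 2309776 and 3072641 counts on genes. The replicates of a medium differed beyond sampling noise (chi-square per gene 10 in control medium, 17.2 in manganese). Levels are CPM, counts scaled to a common library size by the TMM factors of edgeR, and are written as control replicates 1 and 2 against manganese replicates 1 and 2. The log2 fold change is manganese minus control, and SE is its standard error. The adjusted p is that of the edgeR quasi-likelihood test, corrected over every tested gene. PPN1 (YDR452W), the overproduced gene, made up 0.235% and 0.259% of the counts of the control libraries and 0.922% and 1.11% in manganese, and the libraries of CRN, which lacks the gene, had 9 and 7 against 39 and 3 counts. CRN/PPN1 is a MATa strain, and STE2, the receptor for alpha factor that a cells carry, had 697 and 654 against 261 and 248 CPM. Of the genes that define alpha cells, MF(ALPHA)1 had 2 and 1 counts against 8 and 6, STE3 had 11 and 13 against 31 and 7 and SAG1 had 85 and 84 against 114 and 80, and MF(ALPHA)2 did not pass the filter.

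Of 5778 genes tested, 582 (10.1%) were called up in manganese and 870 (15.1%) were called down, where a call needed an adjusted p of 0.05 or less and a log2 fold change of 1 or more in size. The median log2 fold change of all tested genes was 0.01. Changes of 4-fold or more made up 121 of the rises and 236 of the falls. In all 1452 called genes the 2 manganese libraries lay on one side of the 2 control libraries, which was also the case in 4045 (70.0%) of all tested genes. When the library totals replaced the TMM factors, the median log2 fold change was higher by 0.67 and there were 1870 genes called up and 404 called down, so every rise and fall below is relative to the TMM scale. Among the gene lists with more than 10 tested members, wall mannoproteins had the highest share called up (50%), and histones (81.8%), cytosolic ribosomal proteins (68.8%) and snR RNAs (63.0%) the highest shares called down. A list with shares near 10.1% up and 15.1% down moved no more often than all genes.

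**Figure D1:**
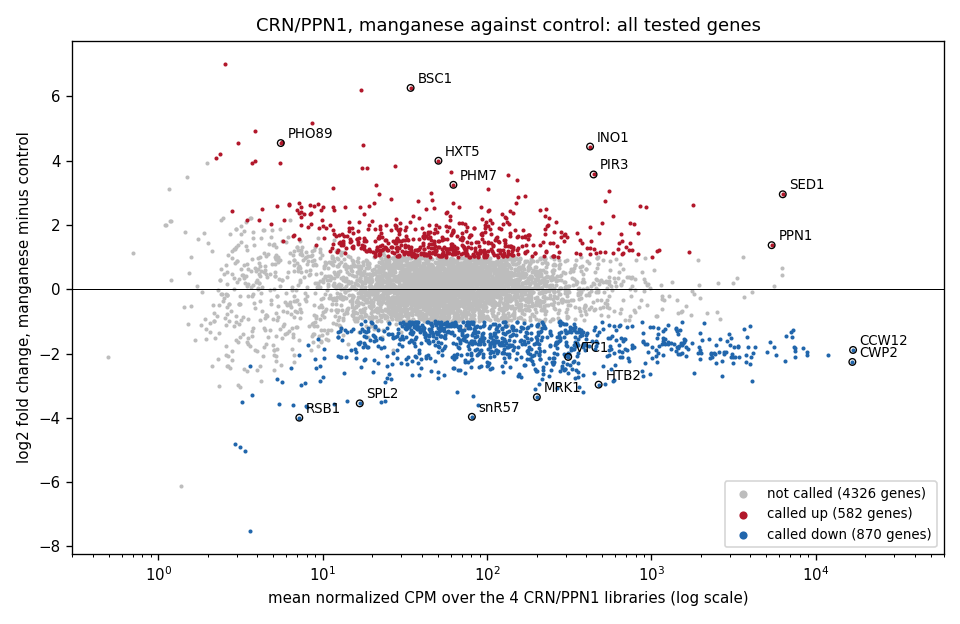
Each point is a gene tested in CRN/PPN1, with the mean normalized CPM over the 4 libraries on the x axis (log scale) and the log2 fold change, manganese minus control, on the y axis. The 582 genes called up and 870 called down are coloured. Many of the genes called down lie at high CPM, while INO1, PIR3 and SED1 are abundant genes that rose.

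The genes called down were mostly short. Of the 1111 genes with a coding length of 78 to 648 bp, 602 (54.2%) were called down (median log2 fold change -1.21), and of the genes of 2130 to 14733 bp 11 were (median 0.35). These shortest genes took 65.9% and 64% of the counts in the control libraries and 33.6% and 34.6% in manganese. With the trend of the counts on coding length removed from each library, 509 of 5537 genes (9.19%) were called up and 326 (5.89%) down. Of the called genes with a known length, 393 of 569 called up and 230 of 791 called down kept their call. The cause of this trend was not tested. For the groups with the most falls that have coding lengths, the count with the trend removed is given beside the main count. RNA was taken from whole cultures, where fewer cells with a transcript and less transcript per cell cannot be told apart.

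**Figure D2:**
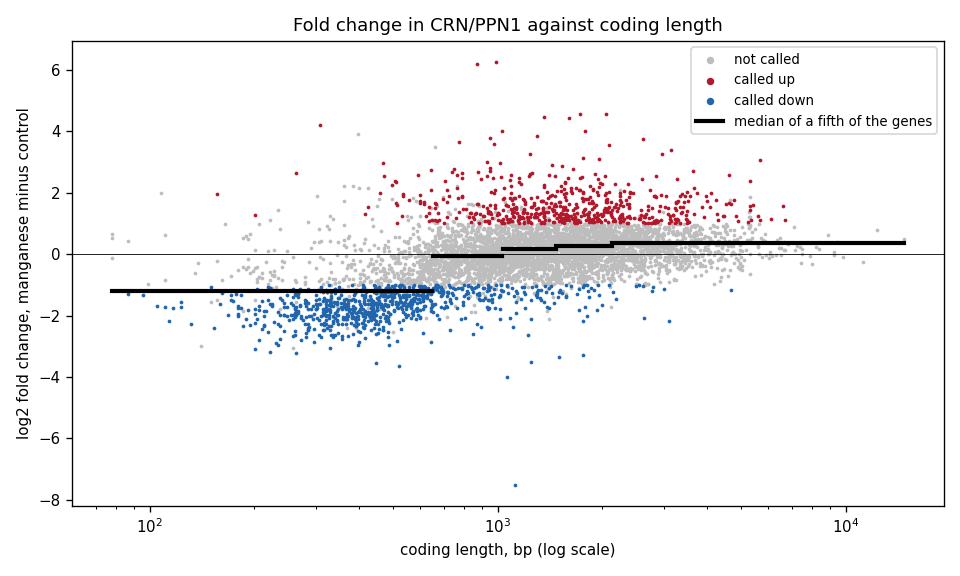
Log2 fold change, manganese minus control, of each gene in CRN/PPN1 against its coding length in bp (log scale). The black lines are the medians of 5 equal groups by length, which rise from -1.21 in the shortest genes to 0.35 in the longest, and the genes called down crowd at the short end.

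Among the genes of polyphosphate turnover, the vector-borne PPN1 was higher in manganese and VTC1 and VTC5 were lower, while the other polyphosphatases were not called. PPN1 had 2945 and 3057 against 7132 and 8394 CPM (log2 fold change 1.37, SE 0.41, adjusted p = 0.0157). The groups did not overlap, and PPN1 was among the 5 most abundant transcripts in manganese. The call was lost with DESeq2 (adjusted p = 0.315) and without control replicate 1 (1.34, adjusted p = 0.108) or control replicate 2 (1.4, adjusted p = 0.0959). PPX1, the cytosolic exopolyphosphatase, had 78.3 and 60.9 against 67.3 and 99 CPM, PPN2 had 142 and 165 against 151 and 168 CPM, and DDP1 had 61.6 and 62.2 against 51.1 and 36.2 CPM. None of these differences passed the test (adjusted p of 0.422, 0.858 and 0.12).

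VTC1, the smallest subunit of the polyphosphate polymerase complex, had 506 and 505 against 116 and 119 CPM (log2 fold change -2.11, SE 0.21, adjusted p = 3.73e-06), a 4.30-fold fall. Its replicates were close and the media far apart. VTC5, which stimulates the complex, had 109 and 110.1 against 54.1 and 52.6 CPM (log2 fold change -1.03, SE 0.19, adjusted p = 0.0006). VTC4, the catalytic subunit, had 42.8 and 48.7 against 60.5 and 62.2 CPM (log2 fold change 0.42, adjusted p = 0.171). The regulatory subunits VTC2 and VTC3 had log2 fold changes of -0.54 and -0.18 and were not called, although VTC2 was called down without manganese replicate 2 (-1.02). With the length trend removed, VTC1, a short gene, was no longer called (-0.76) and VTC5, a long one, still was (-1.38). The call of VTC5 was lost with counts on either strand (-0.98) and on the library total scale (-0.37), where the median of the 5 VTC genes changed from -0.54 to 0.13.

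In the PHO pathway, the small Pho4 targets SPL2 and PHM6 fell, and the sodium-phosphate symporter PHO89, PHM7 and GDE1 rose. Of the genes of PHO signalling, 15 in number, 4 were called up (26.7%) and 2 down (13.3%). SPL2 (YHR136C), which takes part in the switch from low-affinity to high-affinity phosphate uptake, had 28.6 and 33.5 against 2.59 and 2.63 CPM (log2 fold change -3.55, SE 0.47, adjusted p = 3.25e-05). PHM6, a small Pho4-dependent gene, had 12.6 and 9.14 against 1.94 and 1.97 CPM (log2 fold change -2.46, SE 0.51, adjusted p = 0.00149). Both genes were low in each manganese library and their media did not overlap. With counts on either strand PHM6 had -1.78. SPL2 was also called with the length trend removed (-2.38) and PHM6 was not (-0.98). 

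The Pho4 motif CACGTG stood upstream of genes that fell, that rose and that were not called. Upstream stretches are shown for genes whose fold changes point in different directions, namely the 200 bases next to the start codon for SPL2 and VTC1, and 200 bases that lie 100 bases before it for PHM6 and 200 bases before it for PHO89, all from the R64 genome of RefSeq, at chrVIII:375101-375300 (minus strand), chrV:302606-302805 (plus), chrIV:1022422-1022621 (minus) and chrII:798723-798922 (minus). Capitals mark CACGTG.
SPL2: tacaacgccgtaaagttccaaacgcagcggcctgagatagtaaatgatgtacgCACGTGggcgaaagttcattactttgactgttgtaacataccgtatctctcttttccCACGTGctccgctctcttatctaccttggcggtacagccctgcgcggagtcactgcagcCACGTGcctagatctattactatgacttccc
VTC1: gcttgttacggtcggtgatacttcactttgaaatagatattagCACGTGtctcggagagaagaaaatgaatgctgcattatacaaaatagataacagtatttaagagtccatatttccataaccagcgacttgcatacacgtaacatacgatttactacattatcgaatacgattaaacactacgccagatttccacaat
PHM6: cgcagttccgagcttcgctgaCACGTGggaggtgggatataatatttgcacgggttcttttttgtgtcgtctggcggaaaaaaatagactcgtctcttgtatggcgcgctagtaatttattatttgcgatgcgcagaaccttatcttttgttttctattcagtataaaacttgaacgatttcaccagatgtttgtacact
PHO89: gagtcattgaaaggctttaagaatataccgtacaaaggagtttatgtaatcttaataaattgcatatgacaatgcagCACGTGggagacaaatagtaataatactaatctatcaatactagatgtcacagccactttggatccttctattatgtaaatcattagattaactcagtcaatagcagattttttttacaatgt
Within 500 bases SPL2 held 4 such matches, and VTC3, VTC4 and PHO84 held 2 each. VTC1, VTC2, DDP1, PHM6, PHO5, PHO11, PHO12, PHO81, PHO86, PHO87, PHO89, PHO91, GDE1, SYG1 and VIP1 held 1 each. VTC5, which was called down, and PHM7, PHO4, PHO90 and DIA3, which were called up, held no match. The motif was found on either strand in 6.26% of the 5531 promoters of tested genes, in 7.04% of those called up and in 5.70% of those called down. The related CACGTT was found in 16.4%, 15.8% and 17.8%. A match describes the letters only.

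PHO89, which takes up phosphate with sodium at alkaline pH, had 1 count in each control library and 46 and 20 counts in manganese (0.408 and 0.435 against 14.9 and 6.58 CPM). The ratio of manganese to control was 25.6 (95% exact counting interval 6.8 to 215, adjusted p = 0.000344), or 15.6 (3.79 to 138) without manganese replicate 1. The fitted log2 fold change, 4.55, was 3.86 without manganese replicate 1 and 1.81 with counts on either strand, where PHO89 was still called. PHO84, the high-affinity proton symporter, had 12.6 and 21.3 against 8.09 and 11.8 CPM (log2 fold change -0.76, adjusted p = 0.0716, or 0.01 with counts on either strand) and was called down with the length trend removed (-1.03) and without control replicate 1 (-1.1) or manganese replicate 2 (-1.05). The low-affinity transporter PHO90 had 45.3 and 57.4 against 112 and 95.7 CPM (log2 fold change 1.02, SE 0.24, adjusted p = 0.00322) and lost its call without control replicate 1 (0.85) or manganese replicate 1 (0.91), with the length trend removed (0.67) and with counts on either strand (0.96), while its paralog PHO87 and the vacuolar PHO91 were not called (0.61 and 0.73). The glycerophosphoinositol transporter GIT1 had a log2 fold change of -0.70 (adjusted p = 0.0916).

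Of 7 phosphatases tested, 1 was called, DIA3, a homolog of the secreted acid phosphatases. DIA3 had 7.34 and 2.18 against 27.2 and 30.6 CPM (log2 fold change 2.57, SE 0.44, adjusted p = 0.0003), with a log2 fold change of 3.71 without control replicate 1 and 1.97 without control replicate 2, and another annotated gene overlaps it on the same strand. PHO5, the main repressible acid phosphatase, had 21.2 and 23.1 against 24.3 and 17.1 CPM (log2 fold change -0.10, adjusted p = 0.782), and PHO8, the vacuolar alkaline phosphatase, had 117 and 134 against 132 and 107 CPM (adjusted p = 0.806). PHO11 and PHO12 are near-identical, so that 8.55% and 9.57% of their 36-base words are unique in the genome and their counts are uncertain. PHO3, the constitutive acid phosphatase, and PHM8 had log2 fold changes of 0.48 and 0.31.

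PHM7 (YOL084W), a membrane protein of unknown function that is regulated by phosphate, had 11 and 12.6 against 108 and 117 CPM (log2 fold change 3.25, SE 0.24, adjusted p = 8.62e-07), a 9.51-fold rise. GDE1, which splits glycerophosphocholine in the cytosol, had 18.4 and 25.2 against 97.1 and 95.7 CPM (log2 fold change 2.15, SE 0.28, adjusted p = 2.7e-05). SYG1, which carries the SPX domain of phosphate sensing proteins, had 28.2 and 29.2 against 104 and 67.1 CPM (log2 fold change 1.58, SE 0.25, adjusted p = 0.000158). PHO4 itself was called up at a low level, 8.16 and 9.14 against 18.4 and 25 CPM (log2 fold change 1.33, adjusted p = 0.0163), but lost the call without control replicate 1 (1.25), control replicate 2 (1.41) or manganese replicate 2 (1.1). Its inhibitors, the cyclin PHO80 and the kinase PHO85, and the kinase inhibitor PHO81 had log2 fold changes of -0.50, -0.17 and -0.02, with adjusted p of 0.19, 0.567 and 0.939. The inositol pyrophosphate kinases KCS1 and VIP1 had 0.17 and 0.78 and were not called. Nor were PHO2, the partner of PHO4 (0.73), PHO86, which helps Pho84 leave the endoplasmic reticulum (0.09), or the inositol phosphate kinases ARG82 and IPK1 (-0.57 and -0.89), although IPK1 was called down without manganese replicate 1 (-1.54).

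**Figure D3:**
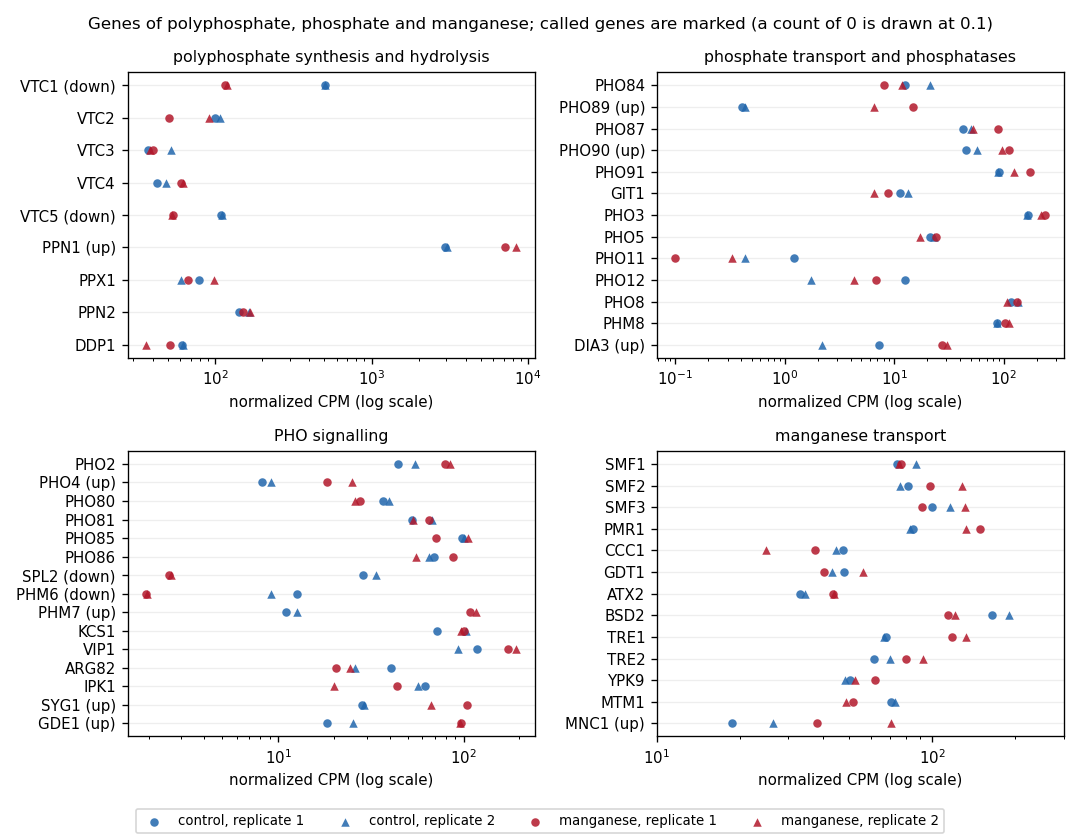
Normalized CPM (log scale) of every tested gene of polyphosphate synthesis and hydrolysis, phosphate transport and phosphatases, PHO signalling and manganese transport in the 4 CRN/PPN1 libraries, with blue for control, red for manganese and the marker shape for the replicate. SPL2 and PHM6 lie lower and PHO89, PHM7 and GDE1 higher in both manganese libraries, while most manganese transporters overlap or lie close.

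Of the 13 genes of manganese transport and homeostasis, 1 (7.69%) was called up and none down, with a median log2 fold change of 0.21. On the library total scale 6 were called up. The manganese transporters SMF1 and SMF2, of the Nramp family, had 74.3 and 87.5 against 76.7 and 75.6 CPM and 81.6 and 76.1 against 98.4 and 128 CPM, with adjusted p of 0.756 and 0.106. PMR1, the Golgi pump for calcium and manganese, had 85.3 and 82.7 against 149 and 132 CPM, with a difference on the log2 scale of 0.74 (SE 0.20, adjusted p = 0.00788) that stayed below the fold limit but passed it on the library total scale (1.41) and with counts on either strand (1.69). BSD2 and its partner TRE1, which send Smf1 and Smf2 to the vacuole for degradation, had log2 fold changes of -0.59 and 0.89 (adjusted p of 0.032 and 0.00214), also within the fold limit and of opposite sign. The vacuolar transporter CCC1, the Golgi exchanger GDT1 and the vacuolar ATPase YPK9 had log2 fold changes of -0.56, 0.09 and 0.21. SMF3, TRE2, ATX2 and MTM1 had 0.04, 0.40, 0.38 and -0.52 and were not called. MNC1 was the one called, with 18.8 and 26.5 against 38.2 and 70.7 CPM (log2 fold change 1.27, SE 0.30, adjusted p = 0.0034). The call was lost without control replicate 1 (1.03) or manganese replicate 2 (0.76) and with counts on either strand (0.88), while the value with the length trend removed was 2.91.

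Pumps for other ions rose in part. Of 16 genes for proton, sodium, potassium and calcium transport, 7 (43.8%) were called up and none down, and 3 were called up with the length trend removed, PMC1, NHA1 and PMA2. PMC1, the calcium pump of the vacuole, had 103 and 106 against 333 and 362 CPM (log2 fold change 1.73, SE 0.19, adjusted p = 6.55e-06). NHA1, the sodium-proton antiporter of the plasma membrane, had 34.7 and 27.8 against 122 and 118 CPM (log2 fold change 1.94, SE 0.22, adjusted p = 1.16e-05). PMA2, the minor isoform of the plasma membrane proton pump, went from 4.49 and 2.18 to 18.4 and 21.4 CPM (log2 fold change 2.56, SE 0.58, adjusted p = 0.00281, or 3.17 without control replicate 1). ENA1, the sodium pump, had 1 and 3 counts in control medium against 8 and 21 counts in manganese, but only 10.6% of its 36-base words are unique. Its adjusted p of 0.0441 rose above the threshold in most settings, and its log2 fold change of 2.43 was 0.46 with counts on either strand.

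PMC1 is a target of Crz1, the factor that calcineurin activates, and in the list of calcineurin genes 2 of 9 were called up and 1 down. The regulator of calcineurin RCN1 had 27.7 and 43.9 against 83.5 and 126 CPM (log2 fold change 1.55, SE 0.27, adjusted p = 0.000321), and the calmodulin-dependent kinase CMK2 had 109 and 169 against 459.6 and 455 CPM (log2 fold change 1.72, SE 0.22, adjusted p = 3.11e-05). Calmodulin itself, CMD1, had 319.9 and 231 against 122 and 129.6 CPM (log2 fold change -1.13, SE 0.21, adjusted p = 0.000625), a fall that was lost with the length trend removed (0.07) and without control replicate 1 (-0.87). The catalytic subunits CNA1 and CMP2, the subunit CNB1 and CRZ1 were not called (log2 fold changes of 0.23, 0.40, -0.58 and 0.55), though CNB1 was called down without manganese replicate 2 (-1.44). The other kinase CMK1 had 116 and 133 against 71.9 and 64.5 CPM (log2 fold change -0.87, SE 0.21, adjusted p = 0.00431), short of the fold limit, and was called down with the length trend removed (-1.05), and RCN2, the paralog of RCN1, had a log2 fold change of 0.14. The 200 bases before the PMC1 start codon (chrVII:485721-485920, R64, plus strand) are shown for their one match to the Crz1 motif GNGGCNCA, in capitals on the opposite strand.
PMC1: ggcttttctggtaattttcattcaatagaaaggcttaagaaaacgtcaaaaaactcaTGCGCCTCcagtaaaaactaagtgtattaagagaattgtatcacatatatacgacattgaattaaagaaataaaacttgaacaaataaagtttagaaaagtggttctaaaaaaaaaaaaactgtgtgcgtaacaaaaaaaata
This motif was found on either strand within 500 bases in 7.68% of all promoters, in 10.2% of those called up and in 6.96% of those called down. Within 250 bases the shares were close to each other, at 3.02%, 3.7% and 3.29%.

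Genes of the iron regulon rose in part. Of 26 genes, 9 (34.6%) were called up and 1 down, at a median log2 fold change of 0.77. With the length trend removed 9 were called up and 1 down. The siderophore transporter ARN2 had 32.6 and 32.6 against 120.4 and 97.3 CPM (log2 fold change 1.74, SE 0.28, adjusted p = 0.000186), and the cell wall mannoprotein FIT3, which retains siderophores, had 50.2 and 35.7 against 118 and 162 CPM (log2 fold change 1.71, SE 0.26, adjusted p = 0.000104, or 2.31 with the trend removed). The regulator AFT1 had 31.8 and 17.8 against 71.2 and 69.4 CPM (log2 fold change 1.49, SE 0.27, adjusted p = 0.000529). FET3 and FTR1, the reductive high-affinity uptake pair, had log2 fold changes of 0.49 and 0.28 and were not called. The Aft1 motif GCACCC was found within 500 bases, on either strand, in 12.9% of promoters of genes called up, in 6.33% of those called down and in 7.52% of all. It was 1 of several motifs counted. Genes called up also had higher shares than all genes for the motifs of Msn2 and Msn4 (41% against 34.4%) and Mbp1 (8.63% against 5.6%). Their shares were lower for Hsf1 (17.6% against 19.3%) and Gcn4 (3.35% against 4.23%). These differences were not tested. Among 17 zinc and copper genes 3 (17.6%) were called up and none down, against 10.1% and 15.1% of all tested genes. They were led by the zinc-regulated secreted protein ZPS1 with 10.2 and 13.5 against 92.2 and 69.7 CPM (log2 fold change 2.77, SE 0.26, adjusted p = 2.27e-06) and the zinc transporter ZRT1 with 63.7 and 51.8 against 176 and 158 CPM (log2 fold change 1.53, SE 0.21, adjusted p = 4.64e-05).

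Subunits of the vacuolar proton ATPase, which acidifies the vacuole, fell in part. Of 18 genes 8 (44.4%) were called down and none up, and with the length trend removed 1 was called down. VMA7 had 1698 and 1348 against 348 and 275 CPM (log2 fold change -2.29) and VMA10 had 1625 and 1679 against 374 and 369.6 CPM (-2.15), both among the short subunits and not called with the trend removed (-0.87 and -0.72). VMA1 and VMA2, the long catalytic and regulatory subunits, had -0.11 and 0.39 and were not called. Of 6 vacuolar ABC transporters 1 rose, VMR1, with 42 and 43.1 against 144 and 143 CPM (log2 fold change 1.76, SE 0.19, adjusted p = 7.85e-06), a 3.38-fold rise with hardly any spread. YCF1, the transporter of glutathione conjugates, had 75.9 and 99.2 against 129.8 and 144 CPM (log2 fold change 0.65, adjusted p = 0.0189), below the fold limit. YOR1 had 0.92 (adjusted p = 0.0034) and passed the fold limit without control replicate 2 (1.28) or manganese replicate 1 (1.04), and YBT1, BPT1 and NFT1 had -0.31, -0.02 and -0.07.

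Many cell wall genes rose. Of 36 genes for wall mannoproteins 18 (50%) were called up and 2 down, at a median log2 fold change of 1.14, and with the length trend removed 16 were called up and 1 down. PIR3, a wall protein with internal repeats, had 74.7 and 63.1 against 804 and 836 CPM (log2 fold change 3.57, SE 0.24, adjusted p = 6.18e-07). SED1, an abundant structural mannoprotein, had 1614 and 1259.6 against 14391 and 7895 CPM (log2 fold change 2.95, SE 0.38, adjusted p = 2.76e-05), the highest mean level of any gene in manganese, although its manganese libraries were far apart. The aspartyl protease YPS3 had 31.8 and 43.1 against 279 and 267 CPM (log2 fold change 2.87, SE 0.22, adjusted p = 8.62e-07, or 2.15 with counts on either strand). BSC1, similar to the flocculin FLO11, had 3 and 1 counts in control medium against 278 and 138 counts in manganese, a ratio of 80.6 (95% exact counting interval 31.2 to 297, adjusted p = 1.52e-06). Of BSC1, 82.7% of the 36-base words are unique, as are 81.8% in PIR3 and 87.4% in SED1.

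The 2 mannoproteins that fell were the most abundant transcripts of the control libraries. CWP2 had 35350.5 and 19814 against 7800.0 and 3699 CPM (log2 fold change -2.26, SE 0.45, adjusted p = 0.000929, or -2.88 without manganese replicate 1), and CCW12 had 30326 and 22699 against 6689 and 7627 CPM (log2 fold change -1.89, SE 0.32, adjusted p = 0.00027). Both are short genes and were not called with the length trend removed (-0.70 and -0.57). In CWP2 as in SED1, replicate 1 was the higher one in each medium.

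Of 35 enzymes that make or remodel glucan and chitin, 16 (45.7%) were called up and 2 down, and 11 and 2 with the length trend removed. GSC2, the stress-induced catalytic subunit of glucan synthase, had 107 and 129 against 947 and 1022 CPM (log2 fold change 3.06, SE 0.24, adjusted p = 8.62e-07), and its constitutive counterpart FKS1 had a log2 fold change of 0.99 (adjusted p = 0.0016), just under the fold limit. CRH1, which links chitin to glucan, had 337 and 241 against 1576 and 826 CPM (log2 fold change 2.06, SE 0.29, adjusted p = 6.18e-05), SCW10, a wall glucanase, had 223 and 172 against 1232 and 701 CPM (log2 fold change 2.29, SE 0.27, adjusted p = 1.3e-05), and CHS3, which makes most of the wall chitin, rose 4.06-fold (log2 fold change 2.02, SE 0.21, adjusted p = 4.21e-06). Of 23 genes of cell wall integrity signalling, 7 (30.4%) were called up and none down. They included the sensor MID2 (38.8 and 41.8 against 128 and 93.1 CPM, log2 fold change 1.46), the kinase SLT2 at the end of the pathway (76.7 and 104 against 249 and 283 CPM, 1.56), its paralog KDX1 (13.9 and 13.5 against 50.2 and 48.7 CPM, 1.85) and the phosphatase PTP2 (46.9 and 42.2 against 178 and 152 CPM, 1.89), with adjusted p between 6.85e-06 and 0.00016.

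**Figure D4:**
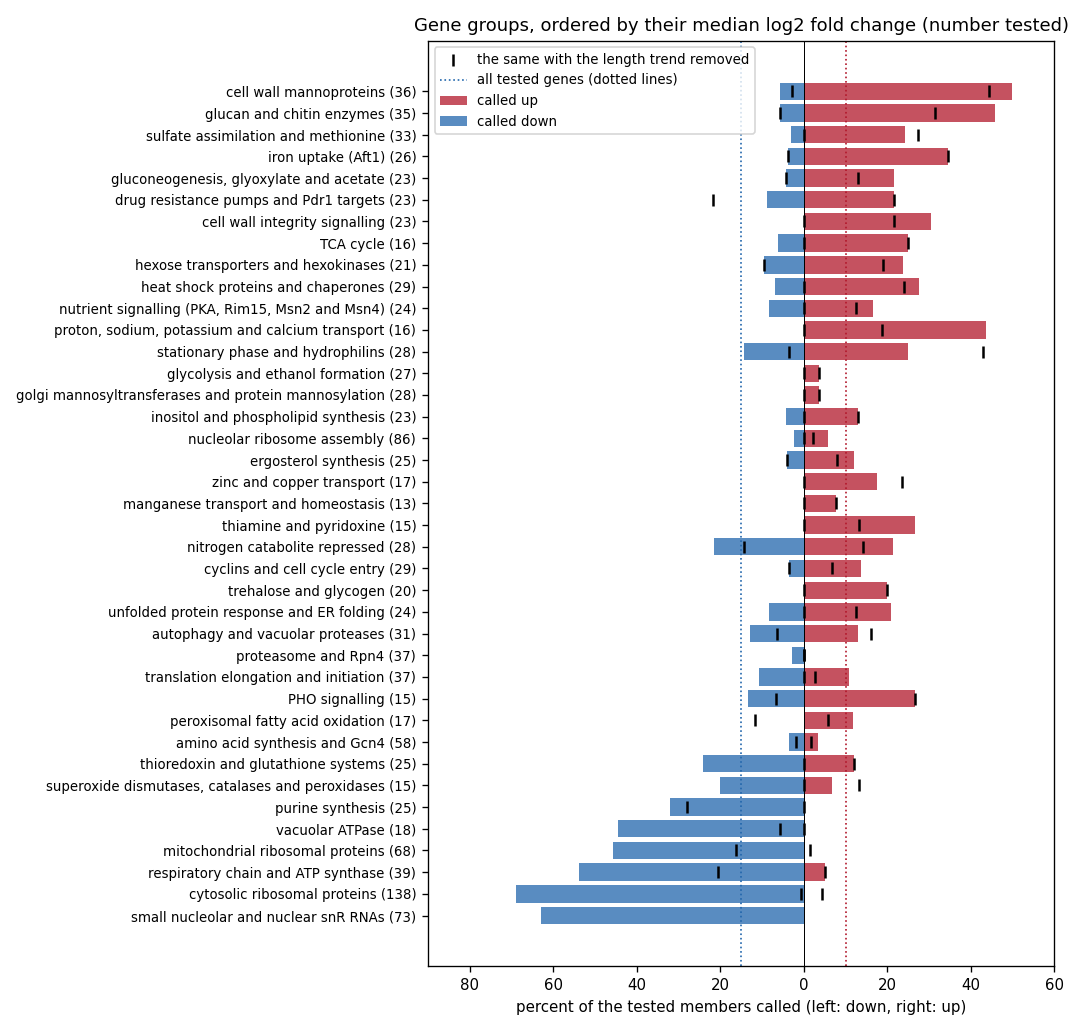
Percent of the tested members of each gene group called up (red, to the right) or down (blue, to the left), with the number tested in brackets and groups of at least 13 tested genes shown in the order of their median log2 fold change. Cell wall mannoproteins (50% up) lead one end and snR RNAs (63.0% down) close the other. Black ticks give the same shares with the length trend removed, where most of the falls are smaller.

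The single gene with the smallest adjusted p was INO1 (YJL153C), the inositol-3-phosphate synthase that makes inositol from glucose 6-phosphate. INO1 had 39.6 and 34.8 against 789 and 828 CPM (log2 fold change 4.44, SE 0.23, adjusted p = 4.3e-08), a 21.7-fold rise, or a log2 fold change of 3.67 with counts on either strand. The inositol transporter ITR1 had 298 and 317 against 1196 and 1327 CPM (log2 fold change 2.04, SE 0.21, adjusted p = 4.21e-06), and the phospholipid methyltransferase OPI3 had 269 and 265 against 559 and 705 CPM (log2 fold change 1.24, SE 0.19, adjusted p = 0.000121). Of 23 genes of inositol and phospholipid synthesis these 3 were called up and the activator INO4, a short gene, was called down (-1.08, 0.07 with the length trend removed, -0.93 without manganese replicate 1 and -0.97 with counts on either strand, none of them called). The activators Ino2 and Ino4 bind CATGTG, a motif that was added after the rise of INO1 was seen. Bases 280 to 81 before the INO1 start codon (chrX:136014-136213, R64, minus strand) are shown for their pair of matches, in capitals, the second on the opposite strand.
INO1: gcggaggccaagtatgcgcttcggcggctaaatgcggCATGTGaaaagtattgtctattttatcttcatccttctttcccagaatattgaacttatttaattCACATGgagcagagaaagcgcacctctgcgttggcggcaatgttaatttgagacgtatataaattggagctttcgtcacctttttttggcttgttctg
Within 500 bases ITR1 held 3 matches and OPI3 held 2, and the motif was found in 12.9% of all promoters, 13.7% of those called up and 11.9% of those called down.

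In ergosterol synthesis 3 of 25 genes were called up (12.0%) and 1 down (4.0%), against 10.1% and 15.1% of all tested genes. ERG25, the C-4 methyl sterol oxidase, had 241 and 210.2 against 729.5 and 542 CPM (log2 fold change 1.49, SE 0.21, adjusted p = 4.64e-05), and ERG28, a short scaffold protein of the same demethylation complex, had 2865 and 3366 against 491 and 540.0 CPM (log2 fold change -2.6, SE 0.24, adjusted p = 2.43e-06) and was also called down with the length trend removed (-1.42). The sterol regulator UPC2 had 15.5 and 10 against 52.8 and 57.5 CPM (log2 fold change 2.1, SE 0.29, adjusted p = 5.31e-05), but with counts on either strand its log2 fold change was -0.21. Among the drug resistance pumps and their neighbours, RTA1, a membrane protein linked to resistance to a sterol inhibitor, rose from 6.12 and 6.96 to 38.8 and 52.6 CPM (log2 fold change 2.8, SE 0.37, adjusted p = 3.05e-05, or 1.63 with counts on either strand), and RSB1, a sphingoid base transporter, fell from 41 and 24 counts to 3 and 2, a ratio of control to manganese of 16.8 (95% exact counting interval 6.83 to 53.4, adjusted p = 0.00146), but with counts on either strand its log2 fold change was -0.18, which was not called.

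**Figure D5:**
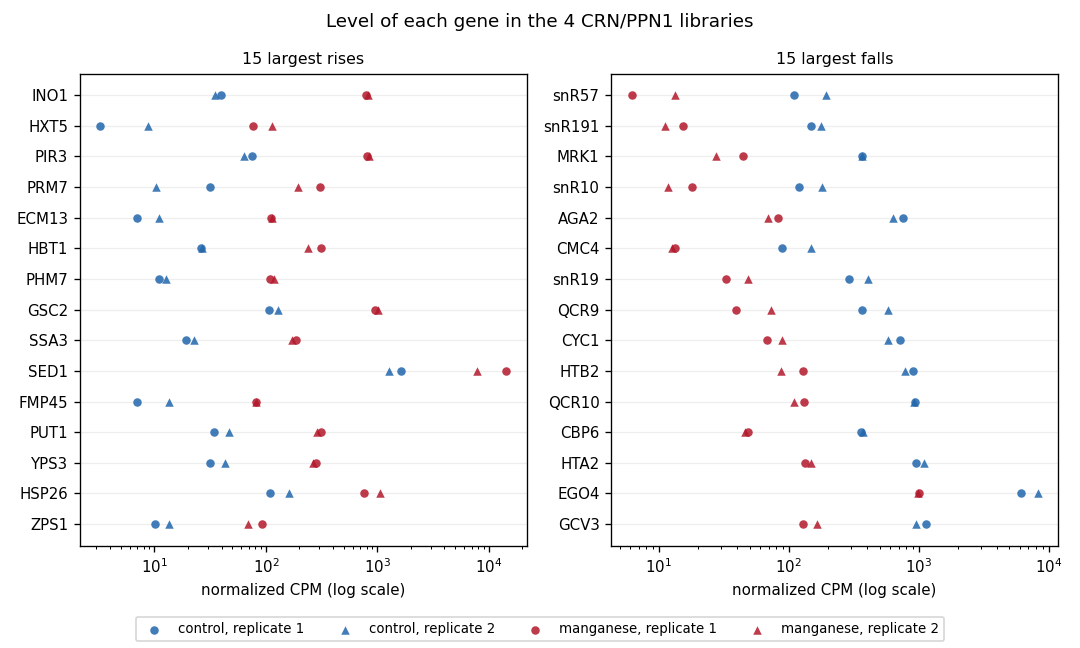
Normalized CPM (log scale) in each of the 4 CRN/PPN1 libraries for the 15 genes with the largest rise (left) and the 15 with the largest fall (right) among called genes, with a mean normalized count no lower than 100. In all 30 genes both manganese libraries (red) lie apart from both control libraries (blue), and INO1 and snR57 head the 2 lists.

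The 15 largest rises took in genes of several functions. HXT5, a hexose transporter of slow growth and starvation, had 3.26 and 8.70 against 76.7 and 114 CPM (log2 fold change 4.0, SE 0.37, adjusted p = 2.19e-06, or 4.85 without control replicate 2 and 2.36 with counts on either strand). PRM7, which is regulated by pheromone, had 31.4 and 10.4 against 304 and 194 CPM (log2 fold change 3.56, SE 0.38, adjusted p = 5.67e-06, or 4.57 without control replicate 1). ECM13, of unknown function, rose 12.5-fold (log2 fold change 3.65, SE 0.27, adjusted p = 8.28e-07). HBT1, a protein of the mating projection, rose 10.5-fold (3.39), FMP45, a membrane protein of the eisosome region, 7.99-fold (3.0), and PUT1, the first enzyme of proline breakdown, 7.44-fold (2.9). HXT2, a high-affinity glucose transporter, was called up as well, though not among these 15 (173 and 215 against 785 and 827 CPM, log2 fold change 2.06, SE 0.20, adjusted p = 3.49e-06). The near-identical HXT6 and HXT7 were both called down (-1.82 and -1.15), but 4.83% of the 36-base words of either are unique, so these 2 values are uncertain, and HXT7 lost its call without control replicate 2 (-0.98).

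Of 15 superoxide dismutases, catalases and peroxidases 1 was called up (6.67%) and 3 down (20%), near the 10.1% and 15.1% of all genes, and with the length trend removed 2 were called up and none down. The peroxiredoxin AHP1 had 393 and 352 against 912 and 846 CPM (log2 fold change 1.24, SE 0.19, adjusted p = 0.000139, or 2.14 with the length trend removed). The copper-zinc superoxide dismutase SOD1 had 1491 and 1549.8 against 539 and 779 CPM (log2 fold change -1.21, SE 0.23, adjusted p = 0.00078), which was not called with the length trend removed (-0.09), on the library total scale (-0.54) or without manganese replicate 1 (-0.95). In the thioredoxin and glutathione systems 3 of 25 genes rose (12%) and 6 fell (24%), and none of the falls were called with the trend removed. The glutathione transferases GTT1 (48.6 and 43.5 against 204 and 276 CPM, log2 fold change 2.38, SE 0.24, adjusted p = 3.89e-06) and ECM4 (28.6 and 23.9 against 71.5 and 77 CPM, log2 fold change 1.5, SE 0.23, adjusted p = 0.000109) rose, and the short genes TRX1, TRX2 and GRX2, for 2 thioredoxins and a glutaredoxin, had log2 fold changes of -2.29, -1.78 and -2.12, or -0.79, -0.31 and -0.89 with the trend removed.

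Of 29 heat shock genes 8 (27.6%) were called up and 2 down. The inducible Hsp70 genes SSA3 (19.2 and 22.6 against 188 and 173 CPM, log2 fold change 3.11, SE 0.22, adjusted p = 6.18e-07) and SSA4 (15.9 and 19.1 against 78 and 63.1 CPM, log2 fold change 2.01, SE 0.28, adjusted p = 4.53e-05) rose, as did the small heat shock protein HSP26 (108 and 162 against 753 and 1049 CPM, log2 fold change 2.74, SE 0.26, adjusted p = 2.44e-06) and the glyoxalase HSP31 (34.3 and 40.5 against 139 and 179 CPM, log2 fold change 2.09, SE 0.21, adjusted p = 4.38e-06). The mitochondrial chaperonin subunit HSP10 and the membrane protein HSP12 were called down (-2.01 and -1.56), and neither was with the length trend removed (-0.54 and -0.11). The disaggregase HSP104 had 0.90 and was not called. Among 28 stationary phase and hydrophilin genes 7 (25%) were called up and 4 (14.3%) down, against 10.1% and 15.1% of all tested genes. With the length trend removed 12 were called up and 1 down, and none of the 4 falls kept its call. The hydrophilin GRE1 had 16.3 and 20 against 115 and 73.3 CPM (2.37, or 3.36 with the length trend removed). The vitamin B6 gene SNZ1 had 50.2 and 35.7 against 250.2 and 216 CPM (2.44). Of 20 trehalose and glycogen genes, 4 rose, among them TSL1, a subunit of trehalose synthase (153 and 169.7 against 569 and 509 CPM, 1.74), and NTH1, a trehalase (75.5 and 94.9 against 265 and 282 CPM, 1.68).

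In the mitochondrion, some enzymes of the TCA cycle rose and many small subunits of the respiratory chain fell. Of 16 TCA cycle genes 4 were called up and 1 down, with ACO1, the aconitase, at 109 and 147 against 458 and 419.9 CPM (log2 fold change 1.77, SE 0.20, adjusted p = 9.57e-06) and MDH1, the mitochondrial malate dehydrogenase, at 34.7 and 36.5 against 81.9 and 98 CPM (log2 fold change 1.34, SE 0.22, adjusted p = 0.000173). Of 39 genes of the respiratory chain and ATP synthase, 21 (53.8%) were called down and 2 up, and 8 and 2 with the length trend removed. CYC1, the main cytochrome c isoform, had 716 and 581 against 68.3 and 89.1 CPM (log2 fold change -3.04, SE 0.23, adjusted p = 8.28e-07, or -1.58 with the trend removed), and QCR9, a small subunit of complex III, had 366 and 584 against 39.5 and 73.3 CPM (log2 fold change -3.07, SE 0.30, adjusted p = 3.49e-06, or -1.43 with the trend removed). The longer subunits QCR2, COR1 and ATP1 had log2 fold changes of 0.32, 0.84 and 0.11 and were not called. NDE2, an external NADH dehydrogenase, rose (8.16 and 11.3 against 33.3 and 44.7 CPM, log2 fold change 2.0, SE 0.35, adjusted p = 0.00033), with a log2 fold change of 0.88 and no call when reads of either strand were counted.

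Among nutrient genes, 8 of purine synthesis fell and 8 of sulfate and methionine metabolism rose. Of 25 purine genes 8 (32.0%) were called down and none up, and 7 were called down with the length trend removed, although on the library total scale 2 were down and 4 up and the median of the list changed from -0.40 to 0.26. SHM2, the cytosolic serine hydroxymethyltransferase that supplies one-carbon units, had 1917 and 1498 against 541 and 463 CPM (log2 fold change -1.77, SE 0.22, adjusted p = 1.71e-05), ADE17, of the last steps to IMP, had 967 and 997 against 273 and 316 CPM (log2 fold change -1.74, SE 0.21, adjusted p = 1.56e-05), and ADE13, the adenylosuccinate lyase, had 972 and 849 against 293 and 315 CPM (log2 fold change -1.58, SE 0.21, adjusted p = 3.61e-05). Of 33 genes of sulfate assimilation and methionine 8 (24.2%) were called up and 1 (3.03%) down, or 9 up and none down with the length trend removed. SAM2, an S-adenosylmethionine synthetase, had 81.2 and 56.6 against 439.9 and 331 CPM (log2 fold change 2.48, SE 0.25, adjusted p = 3.79e-06), the methionine permease MUP1 had 42.8 and 58.7 against 209 and 220.3 CPM (log2 fold change 2.08, SE 0.21, adjusted p = 3.79e-06), and JLP1, a sulfonate dioxygenase, had 4.08 and 3.92 against 36.3 and 40.4 CPM (log2 fold change 3.25, SE 0.29, adjusted p = 1.82e-06, or 2.29 with counts on either strand). Of 28 genes repressed by good nitrogen sources 6 were called up and 6 down (21.4% each), against 10.1% and 15.1% of all tested genes. With the length trend removed 4 were called up and 4 down. The proline genes PUT1 and PUT4 were on one side (2.9 and 2.07) and the peptide transporters OPT2 and PTR2 on the other (-2.09 and -2.0). Of 58 genes of amino acid synthesis 2 rose and 2 fell (3.45% each).

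Most genes for cytosolic ribosomal proteins fell. Of 138 cytosolic ribosomal protein genes 95 (68.8%) were called down and none up, at a median log2 fold change of -1.51. With the length trend removed 1 was called down and 6 up, and on the library total scale 54 down and 4 up. Their share of all counts was 38.1% and 36.6% against 19.4% and 20.3%. Of the 112 ribosomal protein genes of 648 bp or less 93 were called down (median -1.65), and of the 26 longer ones 2 were (median -0.33), while 509 of the 999 other genes of that length were called down (median -1.13). RPS31, a fusion of ubiquitin and a ribosomal protein, had 21733 and 16313 against 5166 and 3966 CPM (log2 fold change -2.06, SE 0.36, adjusted p = 0.000376, or -0.91 with the trend removed). Many ribosomal protein genes have a near-identical copy, and reads that mapped to both were not counted. Of 68 mitochondrial ribosomal proteins 31 (45.6%) were called down, or 11 with the trend removed, as in MRPL49 (426 and 395 against 58.6 and 66.4 CPM, log2 fold change -2.71, or -1.66 with the trend removed). Of 86 assembly factors of the nucleolus 5 were called up and 2 down, and of 37 proteasome genes 1 was called down. With the trend removed 2 assembly factors were called up and none down, and no proteasome gene was called.

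Small nucleolar and spliceosomal RNAs with snR names gave 46 of 73 (63.0%) called down and none up, with a median of -1.71. They have no coding length and were left out of the length-corrected fit. These RNAs carry no poly(A) tail when mature, and their share of all counts was 0.613% and 0.780% against 0.247% and 0.429%. The largest fall was that of snR57, with 110.2 and 193 against 6.15 and 13.2 CPM (log2 fold change -3.97, SE 0.41, adjusted p = 4.38e-06, or -4.61 without manganese replicate 2), and snR19, the U1 RNA of the spliceosome, had 290.1 and 409 against 33 and 48.7 CPM (log2 fold change -3.1, SE 0.25, adjusted p = 8.62e-07). Of 11 histone genes 9 were called down and none up, and 3 with the length trend removed. Those 3 were HTB2 (899.8 and 791 against 129 and 86.5 CPM, log2 fold change -2.97, or -1.63 with the trend removed), HTA2 (954 and 1096 against 133 and 148 CPM, -2.87, or -1.55) and HHF1 (1648 and 1421 against 253 and 217 CPM, -2.71, or -1.21). The G1 cyclin CLN3 was higher, with 66.1 and 62.2 against 293 and 168 CPM (log2 fold change 1.84, SE 0.29, adjusted p = 0.000128). Of the genes that define a cells 5 of 7 fell, or 3 with the trend removed, and the sum of the 7 was 7926 and 7167 against 2618 and 2069.8 CPM. The largest fall among them was that of AGA2, a subunit of a-agglutinin (759.8 and 633 against 82.2 and 68.7 CPM, log2 fold change -3.21, SE 0.26, adjusted p = 8.62e-07, or -1.63 with the trend removed).

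Another of the largest falls was that of MRK1, a glycogen synthase kinase homolog with a coding length of 1506 bp. MRK1 had 366 and 365 against 44 and 27.3 CPM (log2 fold change -3.36, SE 0.27, adjusted p = 1.01e-06), a 10.2-fold fall, or -3.57 with the length trend removed. GCV3, a subunit of the glycine cleavage complex, had 1132 and 945 against 128 and 166 CPM (log2 fold change -2.82, SE 0.22, adjusted p = 8.62e-07) and was also called with the trend removed (-1.86). EGO4, a short gene, had 6161 and 8254 against 1005 and 991 CPM (log2 fold change -2.85, or -1.34 with the trend removed). The 15 largest falls also held snR191 (-3.61) and snR10 (-3.32), which overlap another gene on their strand, and the nuclear genes CMC4 (-3.2), CBP6 (-2.94) and QCR10 (-2.95) for mitochondrial proteins. With the trend removed these 3 had -1.57, -1.9 and -1.32, and with counts on either strand CMC4 had -2.21.

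In the endoplasmic reticulum and the vacuole a few genes rose. HAC1, the transcription factor of the unfolded protein response, had 125 and 153 against 424 and 475 CPM (log2 fold change 1.69, SE 0.20, adjusted p = 1.55e-05), and the chaperone KAR2 had 359.9 and 442 against 1001 and 1170.4 CPM (log2 fold change 1.44, SE 0.22, adjusted p = 0.000111), while the translocon subunits SBH1 and SSS1, short genes, fell (log2 fold changes -1.72 and -1.71, or -0.14 and -0.11 with the trend removed). Of 24 genes in this list 5 were called up and 2 down. PRB1, the vacuolar protease B, had 238 and 247 against 1547 and 1381 CPM (log2 fold change 2.6, SE 0.25, adjusted p = 2.43e-06), and the autophagy ubiquitin-like gene ATG8, a short gene, had 151 and 172 against 57.3 and 51 CPM (log2 fold change -1.58, or -0.16 with the trend removed). The monocarboxylate transporter homolog MCH5, a riboflavin transporter, had 34.7 and 47 against 188 and 223 CPM (log2 fold change 2.33, SE 0.26, adjusted p = 8.14e-06). Its homolog MCH2 was called up with 2.45 and 3.92 against 15.9 and 4.28 CPM (log2 fold change 1.66, SE 0.54, adjusted p = 0.0228), a call that was lost without manganese replicate 1 (0.45), control replicate 1 (1.36) or control replicate 2 (2.03), and MCH1 and MCH4 had -0.64 and 0.65 and were not called. RIM15 and REG1, which act in nutrient signalling, had log2 fold changes of 1.44 and 1.91 and were called up.

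Of 27 genes of glycolysis and ethanol formation 1 was called up and none down, or 14 up on the library total scale. The one called on the TMM scale was the mitochondrial aldehyde dehydrogenase ALD4 (48.2 and 77.4 against 159.9 and 191 CPM, log2 fold change 1.48, SE 0.23, adjusted p = 0.000136). PDC1, the main pyruvate decarboxylase, had 5115 and 5491 against 7087 and 7219.9 CPM (log2 fold change 0.43) and was not called. Of 23 genes of gluconeogenesis and the glyoxylate cycle 5 were called up (21.7%) and 1 down. Of 17 genes of fatty acid oxidation 2 were called up (11.8%), near the 10.1% of all tested genes. Of 15 thiamine and pyridoxine genes 4 (26.7%) were called up, or 2 with the length trend removed. THI20 and THI21 lost their calls in that fit (0.79 and 0.90), and THI4 lost its call with the CRN/PPN1 libraries fitted alone. The thiamine transporter THI7 had 28.6 and 27 against 96.8 and 96 CPM (log2 fold change 1.79, SE 0.23, adjusted p = 2.4e-05). Of 12 genes of meiosis 2 rose and 2 fell (16.7% each), with the regulator IME1 at 39 and 21 counts against 179 and 98 (log2 fold change 1.84).

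The difference of this response from that of CRN was tested as the interaction of strain and medium, and 866 of 5778 genes (15%) had a positive and 672 (11.6%) a negative interaction at the same limits. On the library total scale there were 366 positive and 2149 negative ones. A positive interaction means that the log2 fold change was higher in CRN/PPN1 than in CRN. The manganese cultures of CRN grew for 40 h, so strain and growth time cannot be told apart here, and the test shares its 4 CRN/PPN1 libraries with every value above. PHM7 had the most negative interaction of the genes named by the rule (-8.76, adjusted p = 3.54e-05), but it had 0 counts in both control libraries of CRN, so the size depends on the prior count. The transcription factor ADR1, which activates genes of ethanol and fatty acid use, rose in CRN/PPN1 (29.8 and 40.9 against 114 and 149 CPM, 1.9) with an interaction of -4.52 (adjusted p = 7.39e-06), and RPS22A fell (11530.4 and 9852 against 2593 and 1996 CPM, -2.22) with an interaction of 3.67 (adjusted p = 4.58e-05).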

How the data were processed

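RNA was measured by sequencing in 8 libraries of Saccharomyces cerevisiae, of which the 4 of CRN/PPN1 are described. According to the study's methods, the authors trimmed reads with Trimmomatic 0.36 and mapped them with STAR 2.5.3a to the R64 genome (sacCer3), and the deposited values are raw counts of reads per gene. In all 57008 of 57008 values these counts equalled those of the opposite strand, although the named library kit is not described as stranded in the sources used here. Libraries had between 3252550 and 4914932 reads.

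Counts were tested with edgeR 4.0.16 in R 4.3.3 (glmQLFit and glmQLFTest with the form before version 4, two-sided, TMM, Benjamini-Hochberg) in one model with 4 groups. Of 7126 genes, 5778 had at least 2 CPM in at least 4 of 8 libraries. The biological coefficient of variation was 0.18. Log2 fold changes were fitted with a prior count of 0.125. For PHO89, BSC1 and RSB1, which had 3 counts or less in every library of a medium, the ratio of the media was taken from summed counts. It has a 95% exact (Clopper-Pearson) interval, which covers counting error only. ENA1 was also this low in control medium, and its fitted value is given without such an interval. The study calls the replicates simultaneous cultivations, and p-values measure the spread between 2 such cultures a group. Coding lengths came from RefSeq (6013 genes). For the fit with the length trend removed, the trend of each library on length entered as an offset.

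The libraries and gene lists were chosen with earlier results of these data known. Genes could be named if they belong to the polyphosphate, phosphate, manganese or strain lists, to the 15 largest rises and 15 largest falls with a mean of 100 normalized counts or more, to the up to 4 largest called changes in either direction of another list, to any list of 10 genes or fewer, to the 5 most abundant in a medium, or to the 5 largest interactions of either sign. This gave 296 genes, of which the text describes a part. FET3, FTR1, VMA1, VMA2, FKS1, HSP104, QCR2, COR1 and ATP1 were added after their values were seen. On simulated data for this comparison, with 200 of 5753 genes changed by a log2 fold change of 2, edgeR called 199 of them and 3 others. The simulation gave every gene the same coefficient of variation of 0.18 and had no length trend. It therefore cannot show how the calls hold where a length trend or a shift of many genes is present. Alternatives were other size factors, library totals, DESeq2 1.42.0, the later quasi-likelihood form, no filter, CRN/PPN1 alone, a replicate block, counts on either strand, the length trend, each library left out and no fold limit. Promoters are the 500 bases before the start codon, and a window of 250 bases was added after the data were seen.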

Additional observations from a re-analysis of the deposited data

Results flagged for a closer look

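The response to manganese differed between CRN/PPN1 and CRN, by the interaction test of edgeR, in 10 genes named for the largest interaction of either sign. Their values are the log2 fold change in CRN/PPN1 minus that in CRN, and CRN grew for 40 h in manganese against 16 h for CRN/PPN1, so strain and growth time cannot be told apart. PHM7 had an interaction of -8.76 with 0 counts in both control libraries of CRN and 831 and 963 in manganese, so that its size depends on the prior count. YBR284W, of unknown function, had -4.82, the transcription factor ADR1 -4.52, ULI1 -4.31 and FMP45 -4.06, the last with 2 and 0 counts in the control libraries of CRN. All of these rose in CRN/PPN1, with log2 fold changes of 3.25, 2.02, 1.9, 1.66 and 3.0.

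The positive interactions among the genes named for the largest ones belonged to 4 ribosomal protein genes and a small nucleolar RNA. Over all genes positive interactions numbered 866, or 576 with the length trend removed and 366 on the library total scale. The interactions given here are those on the TMM scale with the length trend kept. RPL42A had 3.49, RPS13 3.51, RPL31A 3.55 and RPS22A 3.67, and their log2 fold changes in CRN/PPN1 were -1.52, -1.54, -1.93 and -2.22, all called down. With the length trend removed these were -0.05, -0.39, -0.48 and -0.88, and none was called. The small nucleolar RNA snR56 had 4.24 with 0 and 5 counts in the manganese libraries of CRN, and a log2 fold change of -2.52 in CRN/PPN1, which was -1.81 without manganese replicate 1 and -3.9 without manganese replicate 2.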

How the results depend on the processing

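On the library total scale 1870 genes were called up and 404 down, and the interaction gave 366 positive and 2149 negative calls. The fit without the length trend gave 326 falls and 576 positive interactions. Without the limit on the fold change 1063 genes were called up. With libraries left out in turn the counts lay between 512 and 640 up, 775 and 970 down, 748 and 926 positive and 464 and 791 negative. The remaining alternatives gave counts within 1.5 times of the main ones. Over 17 alternatives 279 genes were called up and 142 down in every one that tested them. Genes without a coding length, among them the snR RNAs, were not tested with the length trend removed. With the length trend removed the log2 fold changes of INO4 (0.072), CMD1 (0.070), NOP10 (0.39), STE18 (0.11), FMP16 (0.011), MFA1 (0.041) and MFA2 (0.018) were above 0, while these genes were called down in the reported fit, and with counts on either strand UPC2 was at -0.21. The cause was not tested. Of 296 named genes, 296 kept their side of the limits with the size factors of DESeq2, 294 with DESeq2 and 236 on the library total scale, and 208 of 290 did with the length trend removed.

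The labels number the replicates without saying what a number shares, and same-numbered deviations from the group means correlated across genes at r = 0.179 between the media of CRN/PPN1 and at 0.0363 to 0.217 over all pairs of groups, which 2 replicates a group cannot settle as a pairing. With the replicate block 583 genes were called up and 897 down, the interaction gave 903 and 735 calls, and no call of the 296 named genes changed.

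Genes with fewer than 2 CPM in most libraries were not tested, and with 2 cultures per medium a difference under the fold limit says nothing about likeness.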

Other observations

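The values of a few genes of deoxynucleotide synthesis, which were chosen after these values were seen, are given here. RNR3, the damage-induced large subunit of ribonucleotide reductase, had 6 and 6 counts in control medium and 121 and 92 in manganese (edgeR, log2 fold change 3.76, SE 0.33, adjusted p = 1.58e-06). The small subunits RNR2 and RNR4 had log2 fold changes of 1.62 and 1.43 and were called, and the main large subunit RNR1 had 0.90 (adjusted p = 0.00168), below the fold limit. The checkpoint kinase DUN1 had 1.09. SML1, the protein inhibitor of ribonucleotide reductase, had -1.23, or 0.28 with the length trend removed.

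The glycine cleavage complex was likewise looked at after its values were seen. GCV1, GCV2 and GCV3 had log2 fold changes of -1.74, -2.18 and -2.82, while LPD1, the subunit shared with other dehydrogenases, had -0.11 and SHM1, the mitochondrial serine hydroxymethyltransferase, had 0.55. GCV2 had 333 and 244 CPM in control medium against 72.8 and 54.6 in manganese. SMP1 and HO were not among the genes named by the rule, and their values in other settings are not given. SMP1, a transcription factor of the MADS-box family, had 3 and 4 counts in control medium and 115 and 92 in manganese. Its log2 fold change of 4.48 therefore rests on few control counts. The mating type endonuclease HO had -2.19.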
